A study of Mus musculus with 2 samples.

Results

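Heat shock proteins and chaperonins help other proteins to fold, and 83 of the 20250 protein-coding genes with a steady-state RNA level in this series encode members of these families. Membership was set by gene symbol, as the genes named Hspa, Hspb, Hspd, Hspe, Hsph, Hsp90, Dnaja, Dnajb, Dnajc or Cct with a number, and Tcp1. This choice was made with earlier results of these data known. The members were represented by 110 of 26968 protein-coding transcripts, and 16 members had several transcripts. The symbols also take in Hspbp1 and Hspbap1, which share the letters but are not small heat shock proteins, and Hspb11, which works in cilium transport.

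RNA-seq was carried out on 1 library of Ebf1 -/- pre-pro-B cells and 1 library of Rag2 -/- pro-B cells, both of C57BL/6 background. The pre-pro-B cells came from female embryonic liver and lack the transcription factor that commits progenitors to the B lineage. The pro-B cells came from male adult bone marrow and are arrested before V(D)J recombination. Both were cultured on OP-9 stromal cells with 5 ng/mL of Il-7, and the pre-pro-B cells alone also received 10 ng/mL of Scf and 10 ng/mL of Flt3l. Cell type therefore cannot be told apart from genotype, sex, age, tissue of origin and cytokines, and with 1 library per cell type no difference below has a replicate check or a test. Levels are FPKM (fragments per kilobase of transcript, scaled to the mapped reads of the library), summed over the transcripts of a gene.

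The labelled cell types were checked against their markers. All 10 B lineage genes listed, such as Cd79a and Pax5, were higher in pro-B cells, their FPKM adding up to 74.5 and 4057, and all 6 progenitor genes, such as Kit and Flt3, were lower, with sums of 1030 and 4.75. The targeted gene Ebf1 was still measured at 64.0 FPKM in the Ebf1 -/- library, against 273 in pro-B cells. Rag2 was at 34.5 FPKM in pre-pro-B and 22.9 in the Rag2 -/- library. Each gene was lower in the library named for its deletion, Ebf1 by the larger ratio, but neither was absent. A summed level alone therefore does not establish either deletion. Of 10 myeloid genes, 3 passed the filter on low values and all 3 were lower in pro-B cells. The sums over the list were 62.7 and 6.52, with Elane, S100a9 and Ctsg listed at 0 in both. Lyz2 (5.39 and listed at 0) and Mpo (35.7 and 0.122) passed through the pre-pro-B library alone, so their direction followed from the filter. Itgam was at 19.7 and 6.40 FPKM. Of 10 stromal genes, 6 passed, 3 higher and 2 lower in pro-B cells (Postn was listed at 0 in both). Pdgfrb and Thy1 passed through the pre-pro-B library alone, and Col1a2 and Cxcl12 through the pro-B library alone. The sum over the list, 26.0 and 16.0, followed Pdgfrb and Thy1, while the other 7 that were measured were all higher in pro-B cells, with sums of 4.11 and 15.6. None of 7 erythroid genes passed (sums 1.40 and 0.232). The part of these other cells in the members' values was not tested, and in such bulk samples fewer cells of a type and less RNA per cell cannot be told apart.

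Hsp70 proteins bind short hydrophobic stretches of unfolded proteins and release them in a cycle driven by ATP. DnaJ proteins, also called Hsp40, hand clients to Hsp70 and start ATP hydrolysis, and nucleotide exchange factors reset the cycle. Hsp90 acts late, on nearly folded clients such as kinases and steroid receptors, while the chaperonins Hspd1/Hspe1 in mitochondria and CCT in the cytosol enclose a client in a chamber. Cells keep a constitutive set at high levels, and heat or unfolded protein adds an inducible set through heat shock factors, which bind inverted repeats of NGAAN in promoters.

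The promoters of some members that carry the binding pattern of heat shock factors are shown here, because some of these genes were listed at 0 and others were abundant. RefSeq promoters (250 bases before to 50 after the start, build GRCm38.p6) were found for 68 of the 83 members, with 85 promoters. A pair of inverted units, TTCNNGAA or GAANNTTC, each of which reads the same on both strands, was present in 22 of these 85 promoters (25.9%), of 20 genes, and in 15.1% of 32851 promoters of all genes. A run of 3 adjoining units (NGAAN between copies of NTTCN, or the reverse), which contains the pair, was present in 6 (7.06%) and in 0.603% of all promoters. The members with 3 units were Dnajb6, Hspd1, Hspe1 and Hsph1. These promoters are not independent. Dnajb6 and Hsph1 were each counted by overlapping promoters that hold the same run, and Hspd1 and Hspe1 share a single run. Counted by gene, the run was present in 4 of 68 members and in 179 of 27025 genes. The 150 bases before the start are printed 5′ to 3′ on the strand of the gene, with matches to the pair in capitals.
Hspa1a promoter, GRCm38.p6 chr17:34972157-34972306, minus strand: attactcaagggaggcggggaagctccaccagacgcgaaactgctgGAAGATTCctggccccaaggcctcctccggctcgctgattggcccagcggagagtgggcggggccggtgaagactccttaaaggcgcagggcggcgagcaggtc
Hspa1b promoter, GRCm38.p6 chr17:34959239-34959388, minus strand: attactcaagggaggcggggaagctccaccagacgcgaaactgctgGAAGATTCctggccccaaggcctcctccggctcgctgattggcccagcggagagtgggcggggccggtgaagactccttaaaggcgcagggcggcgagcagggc
Hspb1 promoter, GRCm38.p6 chr5:135887769-135887918, plus strand: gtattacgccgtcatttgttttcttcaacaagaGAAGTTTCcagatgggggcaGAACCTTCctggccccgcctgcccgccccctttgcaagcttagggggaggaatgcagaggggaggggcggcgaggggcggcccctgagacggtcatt
Hspe1 promoter, GRCm38.p6 chr1:55087998-55088147, plus strand: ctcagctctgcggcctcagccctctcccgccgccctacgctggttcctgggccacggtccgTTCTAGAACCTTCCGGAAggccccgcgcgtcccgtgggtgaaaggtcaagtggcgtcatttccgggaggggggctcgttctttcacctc
Dnajb6 promoter, GRCm38.p6 chr5:29735748-29735897, plus strand: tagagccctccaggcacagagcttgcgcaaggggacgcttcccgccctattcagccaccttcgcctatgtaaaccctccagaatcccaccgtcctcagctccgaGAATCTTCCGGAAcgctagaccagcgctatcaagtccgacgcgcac

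The stretches of Hspa1a and Hspa1b, neighbouring genes for the heat-inducible cytosolic Hsp70, were the same at 149 of 150 bases (99.3%), each with 1 match that begins 104 bases before the start. Hspb1, a small heat shock protein, had matches at 117 and 97 bases before its start. The Hspe1 start and 1 of the 2 starts listed for Hspd1 are divided by 215 bases, and the genes face away from each other. A single run of 4 units, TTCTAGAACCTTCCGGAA at GRCm38.p6 chr1:55088059-55088076, lies in the promoters of both these starts. It is 72 bases from the Hspe1 start and 127 from this Hspd1 start. The match is a description of letters, and binding at these sites was not analysed here. The transcripts behind these promoters differed widely in level. Hspa1a was measured at 0.0291 FPKM in pre-pro-B and 0.102 in pro-B cells, Hspa1b at 0.227 and 0.259, and Hspb1 was listed at 0 in both, whereas Hspe1 stood at 55.2 and 85.9 FPKM.

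As a group the members were abundant in both cell types. Pre-pro-B cells had 3864 FPKM over the members and pro-B cells 3596, which was 1.24% and 1.07% of the FPKM of all protein-coding genes. Of the 83 members, 11 (13.3%) reached 100 FPKM in the pre-pro-B library and 10 (12.0%) in the pro-B library, against 2.47% and 2.99% of all genes. A level of at least 1 FPKM was reached by 75.9% of members in pre-pro-B and 71.1% in pro-B cells, against 49.5% and 46.2% of all genes. Hsp90ab1, Tcp1, Hsp90b1, Hspa5 and Cct5, the 5 members with the highest mean, held 42.9% of the members' FPKM in the pre-pro-B library and 40.0% in the pro-B library. Hsp90ab1 had the largest single difference (718 and 465 FPKM). Other members differed in both directions, such as Hspa9 (161 and 75.2) and Tcp1 (210 and 318). Without Hsp90ab1, an alternative chosen after seeing the data, the sums were 3146 and 3131. With the libraries scaled by the median ratio of genes (median-ratio scaling) the sums over all members were 3864 and 3909. The direction of their difference therefore depends on the scaling.

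**Figure D1:**
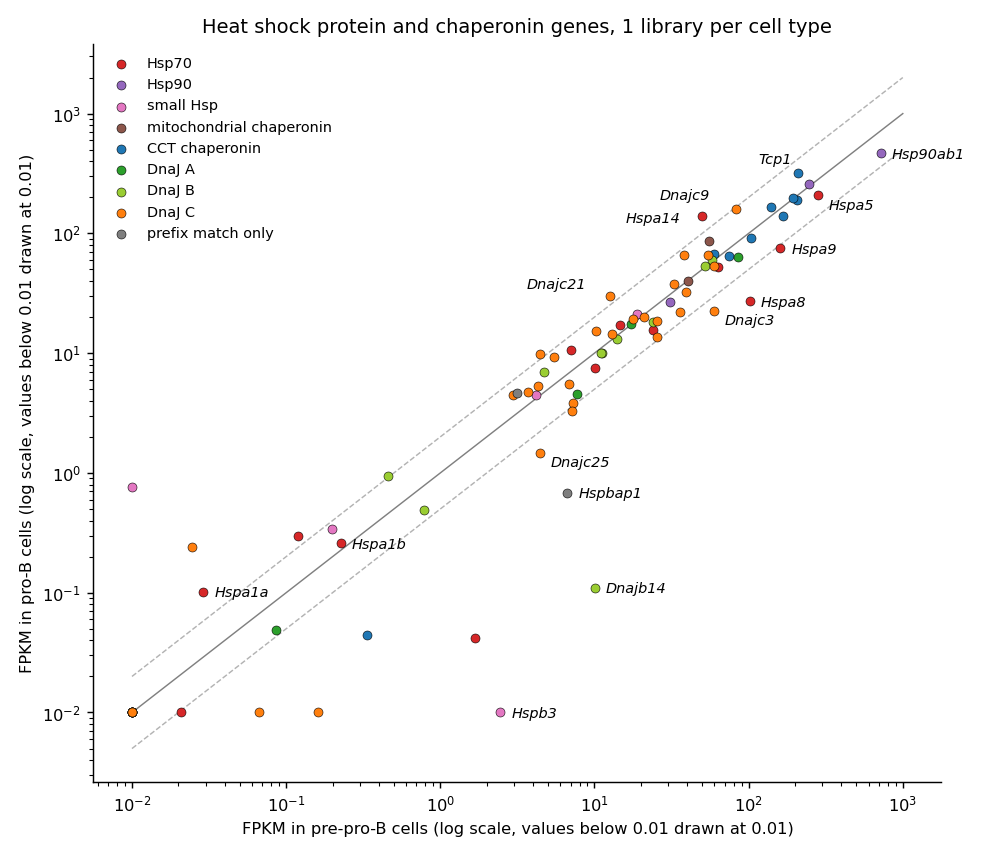
FPKM of the 83 members in the pre-pro-B library (horizontal, log scale) against the pro-B library (vertical, log scale), 1 point per gene, coloured by family; the solid line marks equal levels and the dashed lines a ratio of 2 in either direction, without a pseudocount. Most points from 10 FPKM upward lie between the dashed lines, whereas Dnajb14, Hspa8, Hspa9 and Dnajc3 lie below them and Hspa14 and Dnajc21 above.

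For differences, genes with a mean FPKM of at least 1 were kept, and a gene was counted as higher or lower where log2((pro-B FPKM + 1)/(pre-pro-B FPKM + 1)) was at least 1 in size, a scale that understates the difference of low genes. Of the 83 members, 62 were kept and 21 were below the filter. Dnajb14, Hspbap1 and Hspb3 passed it through the pre-pro-B library alone. In pro-B cells 2 of the 62 (3.23%) were higher, Hspa14 and Dnajc21, where 12.2% of the 10131 kept genes were higher. A further 7 (11.3%) were lower, Dnajb14, Hspbap1, Hspa8, Hspb3, Dnajc3, Dnajc25 and Hspa9, where 17.9% of kept genes were lower. The other 53 were within 2-fold. The median log2 difference of the members was -0.06, beside -0.13 over all kept genes. With median-ratio scaling these medians became 0.05 and -0.02, so the sign of the members' median depends on the scaling. Median-ratio scaling gave 4 members higher and 6 lower, and TPM scaling 3 higher and 9 lower. Before the pseudocount is added, the scalings shift every log2 ratio by 0.12 and -0.12, and low genes move by other amounts once it is added. Cuffdiff's 95% interval, which reflects its model and not a replicate, did not separate the cell types for any of 86 member transcripts measured in both, against 3.14% of 15050 transcripts overall.

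**Figure D2:**
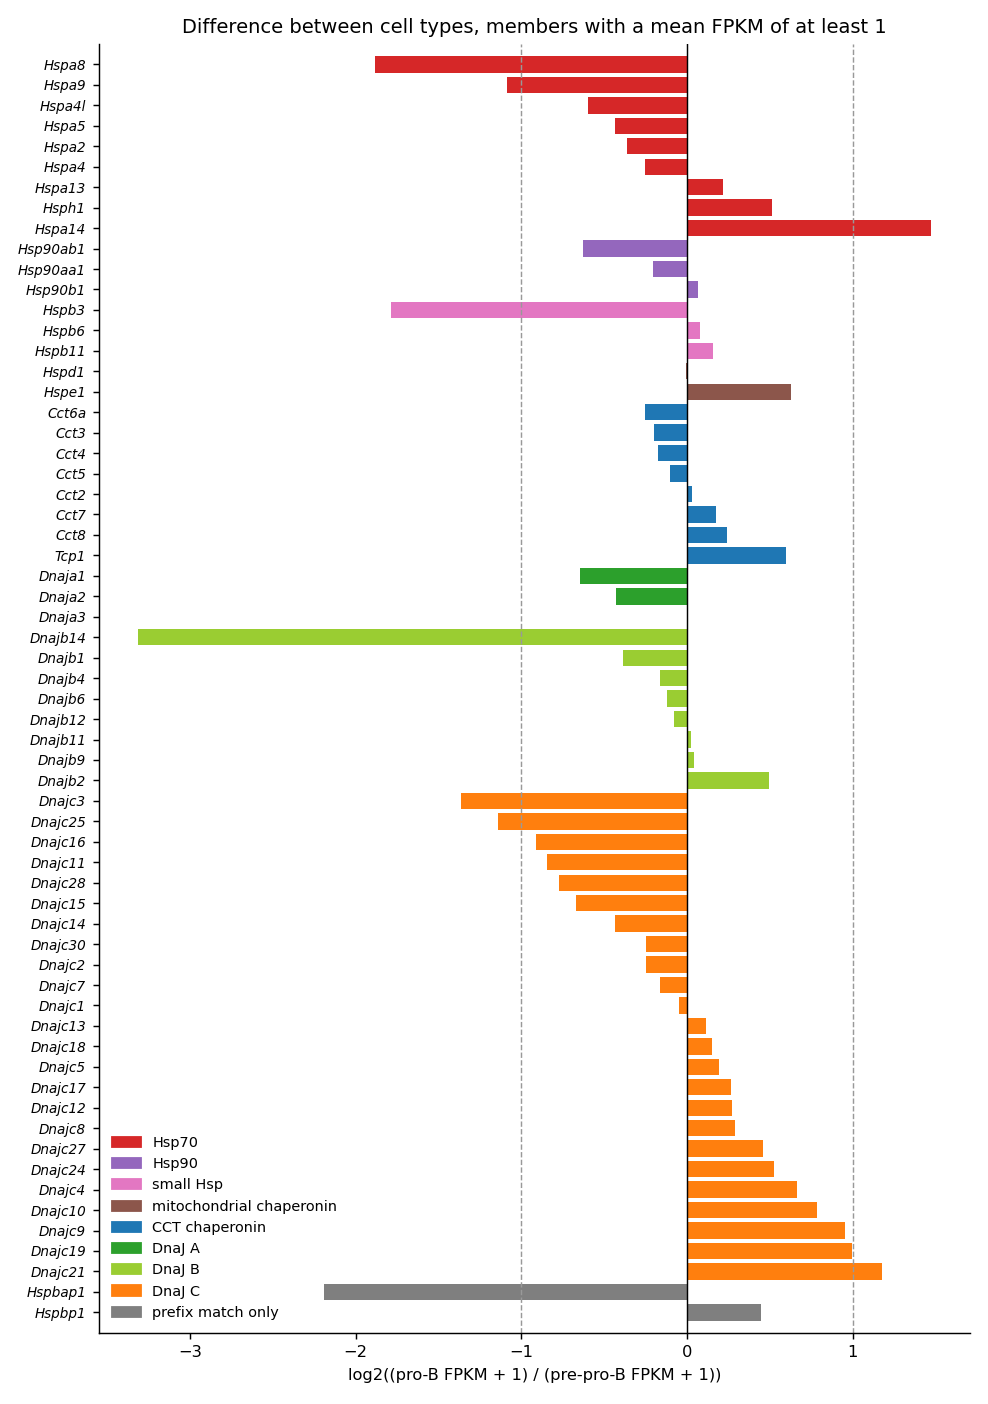
Log2 difference between pro-B and pre-pro-B cells, with 1 FPKM added to each, for the 62 kept members (bars from 0), grouped and coloured by family; dashed lines mark a 2-fold difference. Hspa14 and Dnajc21 pass the line on the right, 7 members pass that on the left, and every CCT subunit lies between -0.25 and 0.60. The bar of Hspb3, listed at 0 in pro-B cells, rests on the pseudocount.

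Sequence shared with other places in the genome bears on these levels, since reads that match several places are divided among them. For each member, the GENCODE transcript nearest in length to its most abundant RefSeq transcript was cut into all its stretches of 32 bases. Each stretch was looked up in the rest of mm9. The scanned transcript can differ from the one behind the FPKM, as for Dnajb14, with 9477 bases scanned and 1851 in its RefSeq transcript. A share can therefore include sequence that does not enter the FPKM. In the 62 kept members the median share found elsewhere was 0.312%, and 45 members were under 10%. In 5 it was over 50%, namely Hspa8 (92.3%), Hsp90aa1 (87.5%), Hspd1 (72.7%), Dnajc19 (59.8%) and Hspe1 (58.7%). Among the genes with low levels, Hspb1 stood at 78.7%, Hspa1b at 68.2% and Hspa1a at 65.9%. The reads, of 97 bp, were longer than these stretches, and a read can hold a difference from a copy that a stretch misses. The shares are therefore not shares of divided reads and may overstate them. The levels of these genes are uncertain to an unknown degree, and the part of the copies in their values was not tested. Restricted to the 45 members under 10%, again chosen after seeing the data, 2 were higher and 5 lower.

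Of 14 Hsp70 genes, Hsph1 included, 9 were kept, with 1 higher, 2 lower and a median log2 difference of -0.36. These counts are 11.1% and 22.2% of the 9, near the 12.2% and 17.9% of all kept genes. Hspa8, the constitutive cytosolic Hsp70 (mm9 chr9:40609067-40613283), was measured at 102 FPKM in pre-pro-B and 27.1 in pro-B cells, a log2 difference of -1.88. It is also the kept member with the most sequence found elsewhere. Hspa9, the Hsp70 of the mitochondrial matrix that pulls in imported proteins, stood at 161 and 75.2 FPKM (log2 difference -1.09), with 21.8% of its stretches found elsewhere. Hspa14, an Hsp70 that works with a DnaJ partner on the ribosome (mm9 chr2:3406122-3430086), went the other way, at 49.6 FPKM in pre-pro-B and 140 in pro-B cells (1.47), and none of its stretches was found elsewhere. The order of these genes within a library therefore differed. Hspa8 was the higher of Hspa8 and Hspa14 in pre-pro-B cells, and Hspa14 the higher in pro-B cells.

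The other kept Hsp70 members were within 2-fold. Hspa5, the Hsp70 of the endoplasmic reticulum (ER) also called BiP, was the most abundant of the family, at 281 and 208 FPKM (-0.43), nearly all of it from 1 of its 2 transcripts. Hspa4, a nucleotide exchange factor of the Hsp110 group, stood at 63.1 and 52.8 FPKM. Its relatives Hspa4l (24.0 and 15.5) and Hsph1 (7.09 and 10.6) differed in opposite directions. Hspa13, an ER-associated Hsp70, and Hspa2, a form best known from testis, were at 14.6 and 17.2 and at 10.0 and 7.56 FPKM. The 5 members below the filter were Hspa1a, Hspa1b and Hspa1l (0.119 and 0.296), all of 1 cluster on chromosome 17, Hspa12b (1.69 and 0.0419) and Hspa12a (0.0208 and listed at 0).

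All 3 Hsp90 genes were kept and within 2-fold. Hsp90ab1, the constitutive cytosolic Hsp90, was the most abundant member of all, at 718 FPKM in pre-pro-B and 465 in pro-B cells (-0.63). Its Cuffdiff intervals ran from 6.59 to 4480 and from 15.9 to 2434, so its estimate is loose in both libraries. Hsp90b1, the ER form that folds Toll-like receptors and integrins, was at 245 and 257 FPKM (0.07). Hsp90aa1, the inducible cytosolic form, was lower than both, at 30.7 and 26.5 FPKM (-0.20).

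Of 8 genes of the small heat shock protein list, 3 were kept. Hspb3, a muscle form, was counted as lower, at 2.46 FPKM in the pre-pro-B library and listed at 0 in the pro-B library, and no fold is given. Hspb11 (18.8 and 21.1) and Hspb6 (4.17 and 4.46) differed little. The other 5 were low: Hspb8, which works with Bag3, was at 0.200 and 0.341 FPKM, Hspb9 was at 0.756 in pro-B cells and listed at 0 in the other library, and Hspb1, Hspb2 and Hspb7 were listed at 0 in both. Of the genes matched by letters only, Hspbap1, named for binding Hspb1, was lower in pro-B cells (6.66 and 0.679, -2.19), and Hspbp1, an Hsp70 nucleotide exchange factor, was at 3.13 and 4.63 FPKM (0.45).

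The CCT chaperonin folds actin and tubulin and is built from 8 different subunits, each present in equal number in the complex.  All 8 subunits were kept and none passed 2-fold, with levels from 59.2 to 210 FPKM in the pre-pro-B library and from 64.4 to 318 in the pro-B library, and log2 differences from -0.25 to 0.60. Tcp1, the first subunit described (mm9 chr17:13108567-13117933), was the highest in both, at 210 and 318 FPKM (0.60). Next were Cct5 (205 and 191) and Cct2 (195 and 199), then Cct8 (140 and 166) and Cct6a (166 and 139). Cct4 was at 104 and 92.1 FPKM, and Cct3 (74.1 and 64.4) and Cct7 (59.2 and 67.0) were the lowest. The genes of each of these 3 pairs changed places between the libraries, within intervals that overlap. The ratio of the highest to the lowest subunit was 3.54 in pre-pro-B and 4.93 in pro-B cells. The summed level of the 8 was 1153 and 1236 FPKM. The log2 ratio of these sums, 0.10, lay within the 0.12 by which scalings shift the ratios. The testis form Cct6b was near 0 (0.333 and 0.0444) and Cct8l1 was listed at 0 in both.

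**Figure D3:**
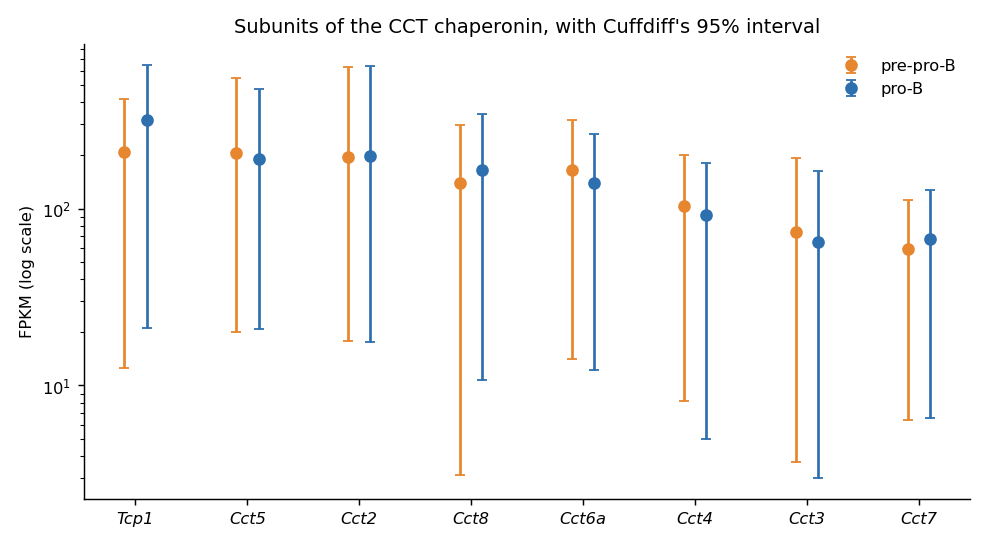
FPKM (log scale) of the 8 CCT subunits in pre-pro-B cells (orange) and pro-B cells (blue), ordered by mean level; points are the single library of each cell type and bars are Cuffdiff's 95% intervals, not a replicate error. The bars of the cell types overlap for all 8 subunits.

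In the mitochondrial chaperonin, Hspd1, which forms the barrel, was at 40.1 FPKM in pre-pro-B and 40.0 in pro-B cells (-0.00). Hspe1, its lid, was at 55.2 and 85.9 (0.63). Both genes share the promoter region described above, and much of both transcripts was also found elsewhere in mm9.

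The DnaJ genes fall into classes by their domains. In class A, which binds clients by itself, 3 of 4 were kept and none passed 2-fold, with a median of -0.43. Dnaja2 was at 85.7 and 63.5 FPKM (-0.43), Dnaja3, a mitochondrial form, at 17.2 and 17.4 (0.01), and Dnaja1 at 7.67 and 4.55 (-0.64). Dnaja4 was near 0 (0.0854 and 0.0491). Within this class the order of the levels was the same in both libraries.

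Of 12 class B genes 8 were kept, 1 was lower (12.5%, beside 17.9% of all kept genes), and the median was -0.10. Dnajb14, an ER membrane protein with a part in degrading misfolded proteins (mm9 chr3:137530639-137579521), had the largest difference of all members, at 10.0 FPKM in pre-pro-B and 0.110 in pro-B cells (-3.31). Its Cuffdiff intervals, 0.277 to 24.4 and 0 to 0.406, still overlap. Its relative Dnajb12, on the same membrane, was at 14.0 and 13.2 FPKM (-0.08). The most abundant were the ER forms Dnajb9 (58.2 and 59.9) and Dnajb11 (52.3 and 53.1), followed by Dnajb1, the inducible partner of cytosolic Hsp70 (24.0 and 18.1, -0.38). Dnajb4 (11.3 and 9.98), Dnajb6, which holds aggregating proteins (11.0 and 10.1), and Dnajb2 (4.68 and 7.01) completed the kept genes. The 4 below the filter were Dnajb7 (0.460 and 0.934), Dnajb13 (0.788 and 0.493) and the testis forms Dnajb3 and Dnajb8, listed at 0 in both.

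Class C is the most varied, with 28 genes whose J domain sits in otherwise unrelated proteins. Of these 24 were kept, with a median of 0.13. In the class 1 was higher (4.17%) and 2 were lower (8.33%), beside 12.2% and 17.9% of all kept genes. Dnajc3, an ER protein also known as p58IPK (mm9 chr14:119337154-119380924), was at 59.6 FPKM in pre-pro-B and 22.6 in pro-B cells (-1.36). Dnajc25 was lower from a low level, at 4.44 and 1.47 (-1.14). Dnajc21, which takes part in ribosome assembly, was at 12.6 and 29.8 FPKM (1.18). At the 2-fold line stood Dnajc19, of the mitochondrial import motor (4.45 and 9.89, 0.998), which passed it without a pseudocount (1.15), and Dnajc9, a histone chaperone (82.3 and 161, 0.96), which passed it with median-ratio scaling (1.08). On the lower side were Dnajc16 (7.10 and 3.31, -0.91), lower at 2-fold without a pseudocount (-1.10), and Dnajc11, of the mitochondrial inner membrane organizing system (25.4 and 13.7, -0.85). Dnajc10, a disulfide reductase of the ER, was higher in pro-B cells (38.1 and 66.3, 0.78). Dnajc15, another member of the import motor, was lower (35.9 and 22.2, -0.67).

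Dnajc7, a co-chaperone of both Hsp70 and Hsp90, was at 59.3 and 52.9 FPKM, and Dnajc8, a spliceosomal protein, at 54.3 and 66.5. Dnajc2, the ribosome-bound partner of Hspa14, was at 39.0 and 32.6 FPKM (-0.25), while Hspa14 itself differed by 1.47. The transcripts of some members differed in opposite directions, such as those of Dnajc28 (summed to 7.27 and 3.84, -0.77), NM_138664 at 5.50 and 1.18 and NM_001099738 at 1.77 and 2.66. Dnajc4 (5.49 and 9.30) and Dnajc24 (10.3 and 15.2), which helps make diphthamide, were higher in pro-B cells by less than 2-fold. The remaining kept genes of the class lay between Dnajc14 (25.5 and 18.5, -0.44) and Dnajc27 (2.98 and 4.48, 0.46). Of those below the filter, Dnajc6 (0.161) and Dnajc22 (0.0671) were listed at 0 in pro-B cells, Dnajc5g was at 0.0243 and 0.239, and Dnajc5b was listed at 0 in both.

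Members were also grouped by place and use, in chosen lists that need not hold every member of a group. The 10 members listed as ER chaperones were all kept, with none higher and 2 lower, Dnajb14 and Dnajc3, and a median of -0.01. Lower genes, at 2 of 10, were near the 17.9% of all kept genes, of which 12.2% were higher. Dnajb14 passed the filter through the pre-pro-B library alone. Among the 8 members listed as mitochondrial none was higher and Hspa9 alone was lower (12.5%, beside 17.9% of all kept genes), with a median of -0.13. Neither count holds under every alternative, since Hspa9 was within 2-fold with median-ratio scaling (-0.97) and Dnajc19 was higher under 4 alternatives. Of 10 members listed as heat-inducible 7 were kept, with a median of -0.20. The one counted as lower (14.3% of the 7) was Hspa8, whose expression is mainly constitutive. Of 11 members known mainly from testis only Hspa2 was kept, and of 4 muscle members Hspb3 and Hspb6.

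The factors that act with the members were also examined, in lists chosen with earlier results of these data known. Of 5 heat shock factors only Hsf1 (5.73 and 6.41 FPKM) and Hsf2 (15.5 and 13.0) were kept, and neither passed 2-fold. Of 13 Hsp70 co-chaperones 12 were kept, and Bag2, an exchange factor, was lower in pro-B cells (9.51 and 0.530, -2.78). Bag2 passed the filter through the pre-pro-B library alone and is 8.33% of the 12, beside 17.9% of all kept genes. The median of that list was -0.41, and Hyou1, the exchange factor of Hspa5, was within 2-fold (26.4 and 13.8, -0.89). Of 18 Hsp90 co-chaperones, all kept, Tomm34 was higher (28.5 and 61.4, 1.08) and Fkbp5, which binds steroid receptor complexes, was lower (26.5 and 8.12, -1.59), with a median of -0.15. With TPM scaling Tomm34 was within 2-fold (0.98). Each of these genes is 5.56% of the 18, beside the 12.2% higher and 17.9% lower of all kept genes. Their hub Stip1, which joins Hsp70 to Hsp90, was at 55.5 and 81.5 FPKM (0.55).

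Prefoldin passes nascent actin and tubulin to CCT, and of 14 prefoldin subunits and chaperonin assistants 10 had a value above 0 on the log2 scale, where 43.1% of all kept genes did, with a median of 0.27. Of these, Tbca (0.11) lay within the 0.12 by which scalings shift the ratios. Pfdn4 (11.5 and 41.1, 1.75) and Pfdn1 (21.3 and 45.3, 1.06) were higher at 2-fold (14.3% of the list, near the 12.2% of all kept genes) and none was lower. Pfdn1 was within 2-fold with TPM scaling (0.96). Their summed level was 432 FPKM in pre-pro-B and 636 in pro-B cells. The CCT subunits they serve are given above.

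In the list of ER folding and the unfolded protein response, 25 genes were kept, 1 was higher and 6 (24.0%) were lower, with a median of -0.31. Of all kept genes 12.2% were higher and 17.9% lower. Ern1, the sensor that splices Xbp1 (15.2 and 1.88, -2.49), Xbp1 itself (50.5 and 15.4, -1.65) and the sensor Atf6 (38.8 and 15.0, -1.31) were lower in pro-B cells. So were the disulfide isomerases Pdia4 (114 and 45.5, -1.31) and Pdia6 (81.5 and 38.9, -1.05) and the degradation adaptor Sel1l (32.4 and 14.8, -1.08). With median-ratio scaling Pdia6 (-0.93) and Sel1l (-0.96) were within 2-fold. The ubiquitin ligase Syvn1, the partner of Sel1l, was higher (8.63 and 32.6, 1.80). In mitochondrial protein quality control, 11 of 12 genes were kept, and Hscb, the DnaJ protein of iron-sulfur cluster assembly, was lower (30.0 and 14.1, -1.04; -0.92 with median-ratio scaling, within 2-fold), with a median of -0.03. Hscb is 9.09% of the 11, beside the 17.9% of all kept genes that were lower. The protease Afg3l2 was within 2-fold (15.9 and 8.36, -0.86).

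**Figure D4:**
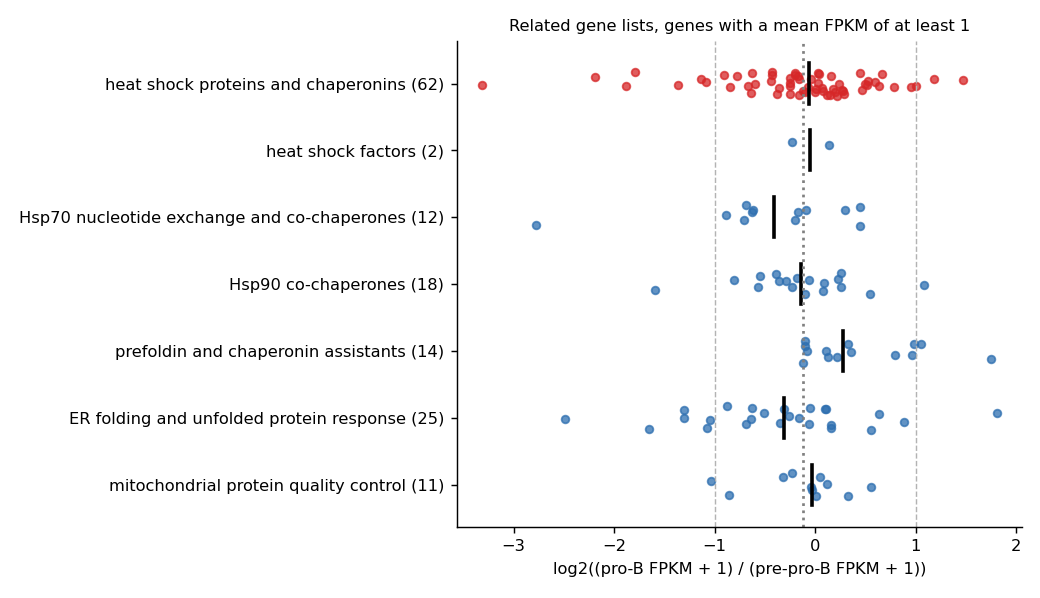
Log2 difference between pro-B and pre-pro-B cells, with 1 FPKM added to each, for the kept members (red) and the kept genes of 6 related lists (blue), 1 point per gene; black bars are the median of each list, the dotted line is the median of all kept genes, and dashed lines mark a 2-fold difference. The median of the prefoldin list is 0.27 and that of the Hsp70 co-chaperones -0.41.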

How the data were processed

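Per the labels, total RNA was depleted of ribosomal RNA, made into strand-specific libraries and sequenced to about 90 M single-end reads of 97 bp per library. The authors aligned reads to mm9 with TopHat and estimated FPKM, with a status and a 95% interval, for each RefSeq transcript with Cuffdiff, and the deposited FPKM are these values. The submitters' processing notes name TopHat 1.5 and Cuffdiff 2.1.1. FPKM hold no counts, so no counting interval or limit for a value of 0 is given. The depth behind each value is unknown. A further deposited table holds the authors' own fold changes, p-values and q-values and a second copy of the FPKM, and none of it was used (2 per-sample columns).

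FPKM of 26968 protein-coding transcripts were summed by gene symbol, with names from a RefSeq table of GRCm38.p6 (26173 of 26580 accessions matched), which gave 20250 genes. Gene positions are GENCODE vM1 on mm9, found for all 83 members, and the promoter sequences are RefSeq's on GRCm38.p6. The pseudocount was 1, the filter a mean FPKM of 1 and the fold 2. No test was run. Alternatives were pseudocounts of 0.1 or none, a mean FPKM of 5 or no filter, TPM and median-ratio scaling, the most abundant transcript, and transcripts with status OK. The members and gene lists were chosen with earlier results of these data known. Genes named were the 3 most abundant of each family, the 10 largest rises and falls among kept members, a list of well-known chaperones with every kept CCT subunit, Hsf1, Hsf2 and the 2 largest differences in each related list, and members listed at 0 in 1 library. Other members and list genes were added after their values were seen, to account for every family and every call. The fold counting was checked on simulated data. The software was matplotlib 3.10.9, scipy 1.17.1, pandas 2.3.3 and numpy 2.4.6 under Python 3.11.15.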

Additional observations from a re-analysis of the deposited data

How the results depend on the processing

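With 1 library per cell type, leaving out a library was not possible. No paired analysis was possible because each group has 1 library. Of the 7 members lower in pro-B cells, 4 were counted with a mean FPKM of at least 5, which leaves fewer genes. Of the members, 4 were higher with median-ratio scaling in place of 2. In the related lists 4 genes were higher and 9 lower. With TPM scaling 3 were higher and 14 lower, and with median-ratio scaling 6 were higher and 6 lower. TPM values have a larger sum than FPKM, so the pseudocount and the filter act on another scale. The promoter share was 7.06% with 3 adjoining units, a stricter pattern. The median over members was 0.05 with median-ratio scaling and -0.18 with TPM scaling, against -0.06, and that over all kept genes was -0.02 and -0.27, against -0.13. Dnajc19 was also higher with a pseudocount of 0.1 (1.13), with median-ratio scaling (1.11) and by its most abundant transcript (1.04). Dnajc16 was lower with a pseudocount of 0.1 (-1.08) and with TPM scaling (-1.14), and Dnajc28 by its most abundant transcript (-1.58). Under the other alternatives the members' counts ran from 2 to 3 higher and from 5 to 9 lower, and none of the genes named by rule that passed 2-fold switched direction where it had a value. Without a pseudocount, genes listed at 0 in a library, Hspb3 among them, had none. The depth behind each FPKM is unknown, so values near 0 cannot be told apart from 0.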
